A study of Mus musculus with 12 samples.

Results

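The 10 genes described here encode secreted factors that fibroblasts release towards blood vessels. They are the VEGF ligands Vegfa, Vegfb, Vegfc and Pgf, the angiopoietin Angpt1, the angiopoietin-like factors Angptl2, Angptl4 and Angptl7, and the thrombospondins Thbs1 and Thbs2. They were picked by name as angiogenic factors of fibroblasts from the 20661 genes in the count files, with RNA, footprint and TE results of these same libraries already known, so their values are a description and their calls are no independent support. All 10 were present in the files, although Angpt1 had too few reads for any of the tests below.

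RNAseq and ribosome profiling, which sequences the mRNA fragments covered by ribosomes (footprints), were performed on mouse embryonic fibroblasts (MEFs) at passage 4. There were 3 groups with 2 replicates each in both assays, 12 libraries in all. WT-shSCR cells were wild type and carried a scrambled lentiviral shRNA. WT-shARF cells were wild type and carried an shRNA against ARF, and Arf-/--shSCR cells lacked ARF and carried the scrambled shRNA, so all 3 groups had been transduced and selected with puromycin. In the knockout, B6.129X1-Cdkn2atm1Cjs/KaiJ, a neo cassette stands in place of exon 1β of Cdkn2a in every cell of the animal. The labels give C57BL/6J for the wild type cells and the study's methods give B6129SF2/J, so strain and Arf genotype cannot be told apart. Neither source says whether the replicates were separate cultures or embryos, and the p-values then measure only the spread between these samples, which may be technical.

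VEGF ligands bind receptor tyrosine kinases on endothelial cells and drive the sprouting, survival and permeability of vessels, while VEGF-C also acts on lymphatic vessels. Angiopoietin 1 stabilises vessels through the receptor Tie2, the angiopoietin-like proteins share its domains but do not bind that receptor, and thrombospondins 1 and 2 are matrix proteins that restrain vessel growth through CD36 and CD47. Translation efficiency (TE) is the footprint level of a gene divided by its RNA level, so a gene can change in RNA, in TE, or in both.

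Reads on genes ran from 1578627 to 3989908 per RNAseq library and from 2544319 to 5157572 per ribosome profiling library. The RNA of the targeted locus went against a label. The study presents an immunoblot of ARF protein as showing both the knockdown and the knockout. Immunoblots are not analysed here. Cdkn2a RNA was 45.1 and 42.2 CPM (a normalised read count, reads on a gene relative to all reads on genes, TMM scaled) in WT-shSCR, 648 and 672 in WT-shARF, and 27.8 and 32.4 in Arf-/--shSCR. The libraries labelled WT-shARF were therefore far above WT-shSCR, with a log2 fold change of 3.91 (SE 0.16), and WT-shARF stands in the following for the libraries labelled so, with every direction against them resting on that label. The count covers both products of the locus, ARF and p16, and in the knockout part of it lies outside the deleted exon, so the count does not check the knockout. Of 10 fibroblast markers, 10 had reads in every group. Their summed level was 21454 to 24908 CPM in WT-shSCR RNA, 22256 to 22433 CPM in WT-shARF RNA and 16329 to 17568 CPM in Arf-/--shSCR RNA. In the knockout Fn1 fell in RNA, by a log2 fold change of -1.49 (SE 0.16), while Col3a1 and Pdgfra rose. Pdgfra had enough reads for that test only through the knockout, where it was high. In knockout footprints 4 of the 10 rose and 3 fell, and some of those that rose also had enough reads only through the knockout. Of all genes tested, 7.93% were called in knockout RNA and 18.5% in knockout footprints. Endothelial markers summed to between 31.9 and 48.5 CPM in the RNA libraries, and Cdh5, which defines endothelial cells, was at 0 in WT-shSCR and Arf-/--shSCR RNA, with 5 and 0 counts in WT-shARF RNA and 0 to 3 in footprints. Pecam1, another endothelial marker, had 51 and 16 RNA counts in WT-shSCR and 0 in the footprints of that group. Kdr, a VEGF receptor in the same list, went the other way. It had 22 to 59 counts in the RNA libraries and 40 to 87 in the footprint libraries, with reads in every group. In such bulk samples fewer cells of a type and less RNA per cell cannot be told apart.

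The study asked about mRNAs that begin with a 5′-TOP motif, a C at the start of transcription followed by a run of C and T bases. The windows around annotated starts are therefore shown for Vegfa, whose translation is the reason for the set, and for Angptl7, whose RNA differed most from WT-shSCR among the members tested. RefSeq (GRCm38.p6) held starts for 7 of the 10 members, 9 starts in all. Each line runs 5′ to 3′ with 15 bases before the start in lower case and 15 bases from the start in capitals. The Vegfa windows lie at chr17:46032363-46032392 and chr17:46025149-46025178, and the Angptl7 window at chr4:148500448-148500477, all on the minus strand.
Vegfa, upstream start: ctgttaccggtgagaAGCGCAGAGGCTTGG
Vegfa, downstream start: ctttgggaagaagatGTCTGCTCTGCGCTC
Angptl7: gccttggtggggtatTCAGACTAAGGAAGG
None of these starts began with C. Of the 9 member starts, 0 began with C followed by 4 C or T bases. The same pattern, read on the strand of the gene, stood at 2.51% of all 32851 starts in the table. It stood at only 17.6% of the 74 starts of Rpl and Rps genes, which are the classical 5′-TOP genes, and no match says only that these letters are not in the annotated window.

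The members were expressed over more than 3 orders of magnitude. Per kilobase of coding sequence, Thbs1 was by far the most abundant in WT-shSCR RNA, at 4026 ± 303 CPM per kb (SD, n = 2). Angptl2 followed at 107 ± 12.9 CPM per kb, then Thbs2 at 80.9 ± 0.121, and Vegfa at 36.8 ± 9.64 was the highest of the VEGF ligands. Angptl4 and Angptl7 came next, at 14.7 ± 2.21 and 11.7 ± 3.36 CPM per kb, and did not differ beyond their spread. Vegfc at 7.99 ± 2.46 and Pgf at 6.79 ± 7.39 CPM per kb overlapped, and Vegfb at 3.46 ± 0.749 and Angpt1 at 1.63 ± 0.153 were the lowest. Thbs1 took between 0.878% and 1.68% of all reads on genes in the RNAseq libraries. In ribosome profiling its share was between 2.00% and 3.44%, and it held rank 1 of all genes in all 6 libraries.

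**Figure D1:**
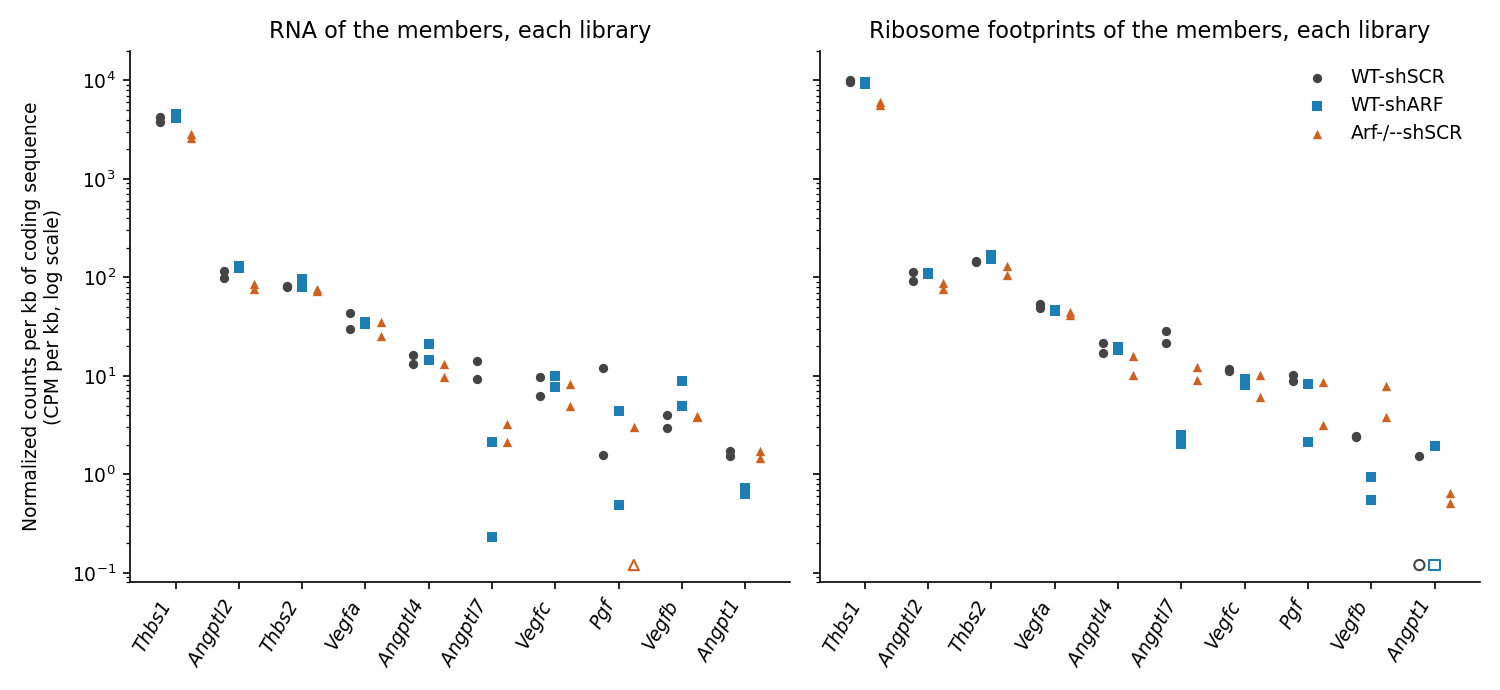
Level of each member in CPM per kb of coding sequence (log axis) in RNAseq and in ribosome profiling, with 1 symbol per library and a colour per group. Thbs1 stands apart at the top, near 4026 CPM per kb in WT-shSCR RNA, and Angpt1 and Vegfb are the lowest in WT-shSCR RNA. Open symbols at the lower edge mark libraries with 0 counts, whose true place on a log axis is undefined.

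Vegfa, the main driver of vessel growth, lies at chr17:46016993-46032369 on the minus strand (GRCm38) with 1176 nt of coding sequence. In RNA it was 35.2 and 51.2 CPM in WT-shSCR, 39.9 and 41.5 in WT-shARF, and 30.02 and 41.0 in Arf-/--shSCR. The 3 groups overlapped, and the widest spread was within WT-shSCR. Footprints on Vegfa were 58.2 and 63.2 CPM in WT-shSCR, 53.2 and 54.6 in WT-shARF, and 49.4 and 52.5 in Arf-/--shSCR. Here the groups did not overlap, yet 57.3% of all genes tested also had groups that did not overlap in the knockout comparison of footprints, and 51.5% in the WT-shARF comparison.

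Neither change of Vegfa passed the test. In the knockout the log2 fold change of RNA was -0.27 (SE 0.26) and that of footprints -0.24 (SE 0.18), with adjusted p of 0.601 and 0.393 (edgeR's quasi-likelihood test, Benjamini-Hochberg over all genes). The fold change of RNA rested on single control libraries: it was 0.01 without WT-shSCR replicate 2 and -0.53 without WT-shSCR replicate 1. The TE ratio of Vegfa was 1.40 in WT-shSCR, 1.32 in WT-shARF and 1.43 in Arf-/--shSCR. The tested change of TE was -0.01 on the log2 scale in the knockout, and 2 SE on either side reach from -0.65 to 0.64. In WT-shARF it was -0.09, with a range from -0.70 to 0.51. These ranges give the spread of the estimate and are no limit of detection, so a change beyond them could also have gone uncalled.

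Vegfc, the lymphatic growth factor (chr8:54077606-54187096, plus strand), was measured on 12 to 53 counts in RNA and 32 to 65 in footprints. Its RNA was 12.1 and 7.78 CPM in WT-shSCR, 9.71 and 12.5 in WT-shARF, and 6.22 and 10.4 in Arf-/--shSCR, and the groups overlapped. Its footprints were 13.8 and 14.6 CPM in WT-shSCR, above 11.6 and 9.97 in WT-shARF and above 7.52 and 12.6 in Arf-/--shSCR, with log2 fold changes of -0.41 (SE 0.40) and -0.48 (SE 0.39). Neither passed the test. Footprint groups that did not overlap were found for 57.3% of all genes tested in the knockout comparison and 51.5% in that of WT-shARF.

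Vegfb, a ligand of VEGFR1 (chr19:6982473-6987651, minus strand), was scarce. Its counts in footprints were 5 and 4 in WT-shSCR, 1 and 3 in WT-shARF, and 27 and 13 in Arf-/--shSCR, the highest of the 3 groups. Its RNA counts were 7 and 3, then 11 and 14, then 7 and 6 in the same order of groups, and RNA was too low for the test. Between Arf-/--shSCR and WT-shARF the log2 fold change of footprints was 2.83 (SE 0.90), with an adjusted p of 0.063 by edgeR. The change of TE was 3.59 (SE 1.19), which had an unadjusted p of 0.00596 and an adjusted p of 0.425. Against WT-shSCR the footprint value of the knockout was 1.26 (SE 0.78). In both footprint tests Vegfb passed the filter on low counts only through Arf-/--shSCR, where it was high. In TE it passed through WT-shARF RNA and Arf-/--shSCR footprints, where its counts were highest. These values of Vegfb are therefore a description and no support for a difference. Pgf, placental growth factor, which binds the same receptor (chr12:85166635-85177790, minus strand), had 0 to 9 counts in RNA and 5 to 22 in footprints. No difference of Pgf was detectable at that depth.

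Angpt1, the activating ligand of Tie2 (chr15:42424723-42676977, minus strand), had 2 to 6 counts per RNAseq library. In ribosome profiling it had 7 and 0 counts in WT-shSCR, 8 and 0 in WT-shARF, and 4 and 5 in Arf-/--shSCR. It was tested in none of the comparisons.

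Angptl7, a secreted factor known from the trabecular meshwork of the eye, had the largest differences from WT-shSCR of the members tested in RNA of both groups and in WT-shARF footprints, while Vegfb had larger values in the other footprint comparisons. It lies at chr4:148495183-148500460 on the minus strand inside the gene body of Mtor, which runs on the other strand. No coding bases are shared, and the counting command given by the study sets no strand option, in which case HTSeq counts by strand. Its RNA counts were 25 and 22 in WT-shSCR, 4 and 1 in WT-shARF, and 9 and 5 in Arf-/--shSCR, which is 9.47 and 14.3 CPM, 2.16 and 0.236 CPM, and 3.30 and 2.16 CPM. Both WT-shSCR libraries were above all others. Of all genes tested in RNA, 51.6% had groups that did not overlap in the knockout comparison and 49.7% in that of WT-shARF.

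The footprints of Angptl7 showed the same order of group means on more reads. They were 66 and 73 counts in WT-shSCR, 7 and 10 in WT-shARF, and 65 and 47 in Arf-/--shSCR, and in CPM 21.7 and 28.8, then 2.53 and 2.08, then 12.5 and 9.11. The 3 groups did not overlap, with WT-shSCR highest and WT-shARF lowest. Among all genes tested in footprints, 57.3% had no overlap in the knockout comparison and 51.5% in that of WT-shARF. Between Arf-/--shSCR and WT-shARF the share was 50.3%. Relative to WT-shSCR, Angptl7 was lower by a log2 fold change of -3.66 (SE 0.74) in WT-shARF RNA and -3.45 (SE 0.47) in WT-shARF footprints. In the knockout the values were -2.06 (SE 0.57) for RNA and -1.20 (SE 0.33) for footprints. Each of these 4 values kept its direction in every alternative that tested it. The call for WT-shARF footprints held in 11 of 11 alternatives and that for WT-shARF RNA in 9 of 11, with a value of -2.40 and no call without WT-shARF replicate 2. The call for knockout RNA held in 6 of 11, and was lost without Arf-/--shSCR replicate 2 and without either WT-shSCR library. The call for knockout footprints held in 9 of 12 and was lost without the same 3 libraries. Between Arf-/--shSCR and WT-shARF, footprints on Angptl7 were higher in the knockout by a log2 fold change of 2.25 (SE 0.51).

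Angptl7 passed the filter on low counts only through WT-shSCR, where it was high, in RNA and in the footprints of WT-shARF against WT-shSCR. Those calls are therefore a description and no support for a difference. Its TE ratio in WT-shSCR was 2.13, above 92.2% of the 8682 genes compared. Its change of TE was 0.82 (SE 0.61) in the knockout and 0.24 (SE 0.83) in WT-shARF, and neither passed the test.

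**Figure D2:**
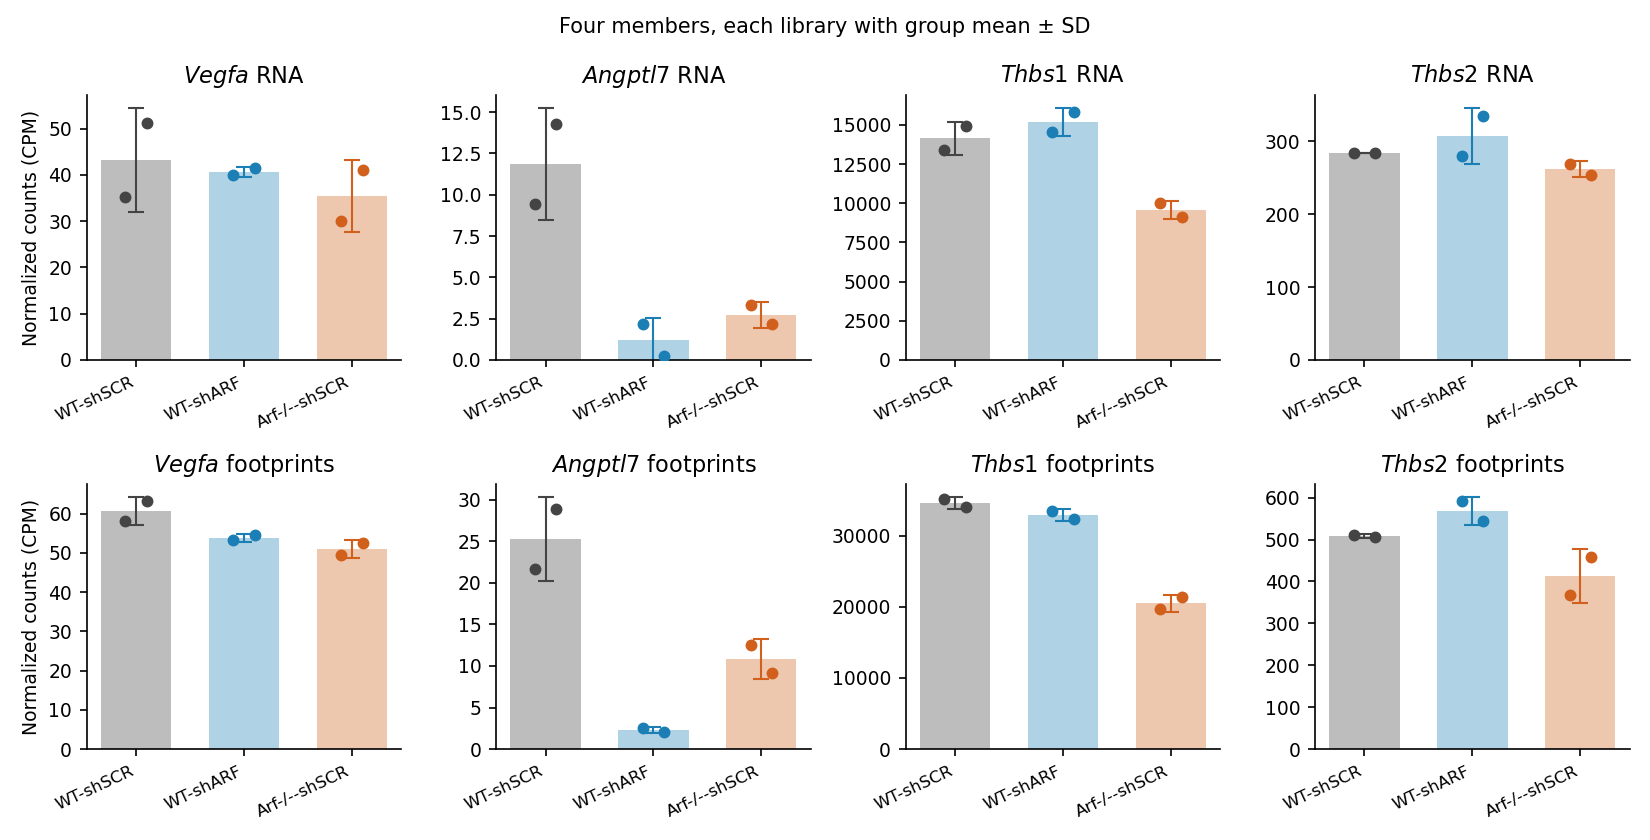
CPM of Vegfa, Angptl7, Thbs1 and Thbs2 in RNAseq and ribosome profiling, where bars give the mean of each group, error bars the SD (n = 2) and dots the libraries. Angptl7 falls from 21.7 and 28.8 footprint CPM in WT-shSCR to 2.53 and 2.08 in WT-shARF, Thbs1 is lowest in Arf-/--shSCR in both assays, and the Vegfa bars are close to each other. Where an SD bar would run under 0 it is cut at the axis.

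Angptl2, a secreted factor linked to inflammation and tissue remodelling (chr2:33216069-33247717, plus strand), lies inside the gene body of Ralgps1 on the other strand, and no coding bases are shared. Its RNA was 145 and 172 CPM in WT-shSCR, 184 and 193 in WT-shARF, and 127 and 114 in Arf-/--shSCR. The 3 groups did not overlap and the knockout was lowest, while 51.6% of all genes tested had groups that did not overlap in the knockout comparison of RNA and 49.7% in that of WT-shARF. Its footprints were 135 and 169 CPM, 163 and 162 CPM, and 112 and 129 CPM in the same order, again lowest in the knockout. In footprints 57.3% of all genes tested had groups that did not overlap in the knockout comparison.

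Only the difference between Arf-/--shSCR and WT-shARF passed the test for Angptl2. RNA was lower in the knockout by a log2 fold change of -0.65 (SE 0.14, edgeR adjusted p = 0.0259), and footprints by -0.42 (SE 0.12, edgeR adjusted p = 0.0295). Both calls were lost without either WT-shARF library, that for RNA also without Arf-/--shSCR replicate 2 and when the fit held a replicate block, and that for footprints also without Arf-/--shSCR replicate 1. Against WT-shSCR the knockout values were -0.39 (SE 0.17) in RNA and -0.31 (SE 0.14) in footprints, and both missed the threshold after adjustment. In WT-shARF they were 0.26 (SE 0.15) and 0.10 (SE 0.13). The TE ratio of Angptl2 was close to 1 in all groups, 0.959 in WT-shSCR, 0.859 in WT-shARF and 1.00 in Arf-/--shSCR, so this gene was near the middle of all genes.

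Angptl4, an inhibitor of lipoprotein lipase that PPAR receptors and low oxygen induce (chr17:33773750-33781830, minus strand), had 25 to 111 counts in RNA. Its footprints were 21.0 and 26.5 CPM in WT-shSCR, 22.4 and 23.9 in WT-shARF, and 12.5 and 19.6 in Arf-/--shSCR. The knockout libraries were below the others. Of all genes tested in footprints, 57.3% had knockout libraries that did not overlap WT-shSCR and 50.3% had ones that did not overlap WT-shARF. The log2 fold change in the knockout was -0.37 (SE 0.36) in RNA and -0.55 (SE 0.31) in footprints, and neither passed the test.

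Thbs1, the thrombospondin that activates latent TGF-β and restrains vessel growth, lies at chr2:118111876-118127133 on the plus strand with 3513 nt of coding sequence. Its RNA was 13393 and 14896 CPM in WT-shSCR, 14536 and 15830.1 in WT-shARF, and 9981 and 9149.8 in Arf-/--shSCR. Both knockout libraries were below the 4 wild type libraries, and the wild type groups overlapped. Its footprints were 35187 and 34014 CPM in WT-shSCR, 33513 and 32292 in WT-shARF, and 19667 and 21319.9 in Arf-/--shSCR, with the same gap. Between knockout and WT-shSCR, 51.6% of all genes tested in RNA and 57.3% in footprints had groups that did not overlap. Between knockout and WT-shARF the shares were 47.1% and 50.3%.

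The level of Thbs1 fell in the knockout, with a log2 fold change of -0.57 (SE 0.14, edgeR adjusted p = 0.0127) in RNA and -0.74 (SE 0.04, edgeR adjusted p = 6.87e-15) in footprints. These are 1.48-fold and 1.67-fold lower levels. Over the 12 alternatives the RNA value ran from -0.64 to -0.48 and the footprint value from -0.79 to -0.68, and each was called in 10. The RNA call was lost without Arf-/--shSCR replicate 2 and without WT-shSCR replicate 2, and the footprint call without either WT-shSCR library, where 0 genes of all were called. Against WT-shARF the knockout had log2 fold changes of -0.67 (SE 0.10) in RNA and -0.68 (SE 0.03) in footprints, and both passed. In WT-shARF against WT-shSCR the values were 0.10 (SE 0.13) in RNA and -0.07 (SE 0.03) in footprints, and neither passed.

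Because Thbs1 is one of the most abundant mRNAs, its counting error was the smallest of the members, between 21188 and 155487 counts per library. Its TE ratio was 2.45 in WT-shSCR, above 95.0% of genes, 2.17 in WT-shARF and 2.14 in Arf-/--shSCR. The change of TE in the knockout was -0.21 (SE 0.10), with an unadjusted p of 0.0528 and an edgeR adjusted p of 0.742. In WT-shARF it was -0.16 (SE 0.10).

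Thbs2, the close relative of Thbs1 that also binds matrix metalloproteinases (chr17:14665500-14694235, minus strand), had a similar coding length of 3516 nt and far fewer reads. Its RNA was 285 and 284 CPM in WT-shSCR, 279.9 and 335 in WT-shARF, and 269 and 254 in Arf-/--shSCR. The knockout libraries were lowest by a small margin, and the log2 fold change of -0.12 (SE 0.15) did not pass. Its footprints were 511 and 505 CPM in WT-shSCR, 592 and 545 in WT-shARF, and 368 and 459 in Arf-/--shSCR, and the groups did not overlap. Groups without overlap were common among all genes tested, with 51.6% in knockout RNA, 57.3% in knockout footprints and 51.5% in WT-shARF footprints.

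Footprints on Thbs2 fell in the knockout, with a log2 fold change of -0.29 (SE 0.10, edgeR adjusted p = 0.0395), which was called in 7 of 12 alternatives and not by DESeq2 or without a filter on low counts. It depended on the knockout libraries, with -0.13 without Arf-/--shSCR replicate 1 and -0.45 without Arf-/--shSCR replicate 2, and it was lost without either WT-shSCR library. Against WT-shARF the log2 fold change in the knockout was -0.45 (SE 0.09, edgeR adjusted p = 0.00401). The TE ratio was 1.79 in WT-shSCR, 1.85 in WT-shARF and 1.58 in Arf-/--shSCR, and the change in the knockout was -0.20 (SE 0.18).

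Counted over the members, 2 of 7 tested were lower in knockout RNA (Angptl7 and Thbs1), where 7.93% of all genes tested were called. In knockout footprints 3 of 9 were lower (Angptl7, Thbs1 and Thbs2), where 18.5% of all genes were called. In WT-shARF 1 of 7 was called in RNA and 1 of 8 in footprints, Angptl7 each time, beside 7.28% and 11.1% of all genes. Between Arf-/--shSCR and WT-shARF, 2 of 6 were called in RNA beside 2.57% of all genes, and 4 of 9 in footprints beside 8.23%. Members that are not listed as tested were removed by the filter on low counts. Nothing is read from these shares, since the members were chosen with the results known.

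In TE no member was called by edgeR in any of the 3 comparisons. Of the 8 members tested in the knockout and the 8 tested in WT-shARF, 0 had an unadjusted p under 0.05, and of the 9 tested between Arf-/--shSCR and WT-shARF 1 had, Vegfb. DESeq2 also called 0 members in each. The shares of all genes called were 0.194%, 0.0354% and 0.043%, so calls were rare throughout.

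The members' values in the knockout lay on the low side. All 7 tested in RNA had log2 fold changes under 0, as did 50.4% of all genes, and their median was -0.37 beside -0.0038 for all genes. In footprints 8 of 9 were under 0, beside 50.1% of all genes, with a median of -0.48. In WT-shARF 2 of 7 were under 0 in RNA with a median of 0.11, and 6 of 8 in footprints with a median of -0.12, beside 50.2% and 50.3% of all genes. The 2 WT-shSCR libraries of each assay serve as control in both comparisons, so the values are not independent of each other.

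**Figure D3:**
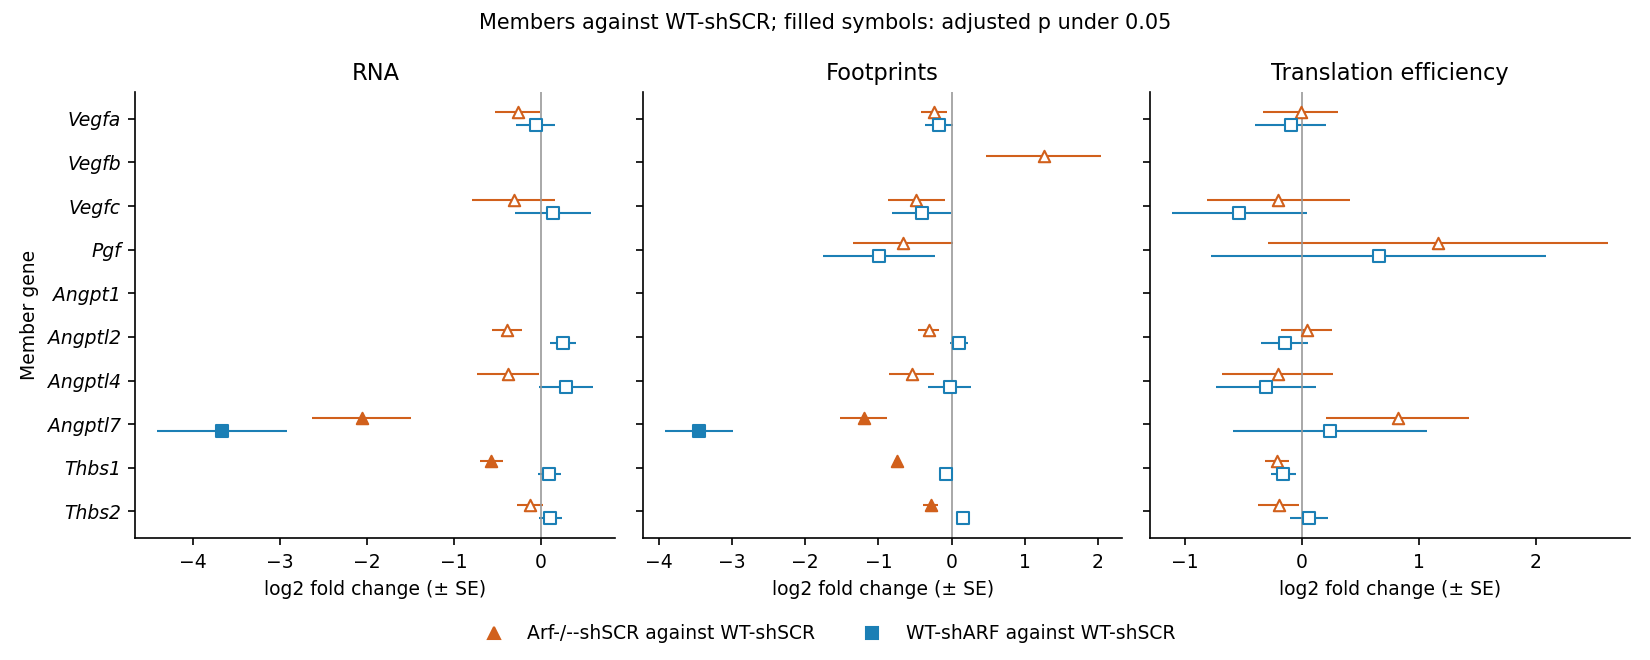
Log2 fold change of each member against WT-shSCR in RNA, footprints and TE, for Arf-/--shSCR and WT-shARF, with bars of 1 SE and panels that have their own x axes. Filled symbols passed an adjusted p of 0.05 (edgeR) and open symbols did not, and a member with no symbol was not tested. Angptl7 is far left in both groups for RNA and footprints, Thbs1 is left only in the knockout, and no symbol in the TE panel is filled.

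At baseline, in WT-shSCR, several members stood high in TE. Beside Thbs1 and Angptl7, Thbs2 was above 86.8% of genes, Vegfc above 75.9% with a ratio of 1.43, Vegfa above 74.8% and Angptl4 above 70.4% with a ratio of 1.31. Angptl2 was above 48.9%. The median log2 TE of all genes was -0.04. These are orders within the same libraries, and TE depends on how each assay scales.

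**Figure D4:**
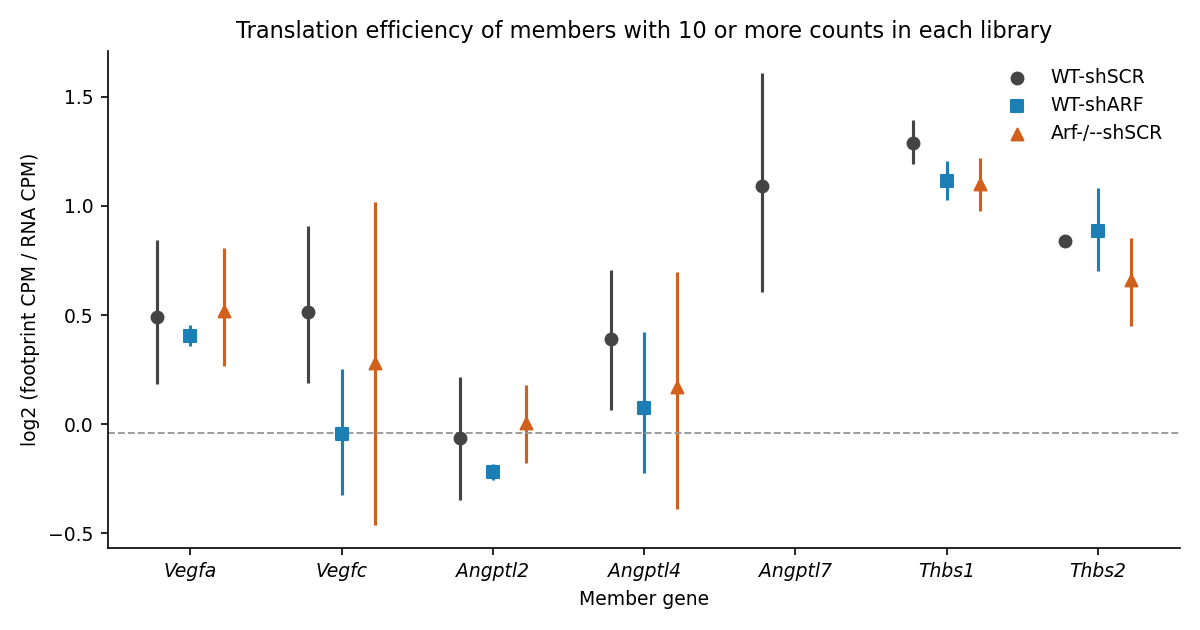
Log2 TE of the members with at least 10 counts in every library of a group. Dots give the ratio of the mean CPMs, lines run from the lowest to the highest of the 4 pairings of replicates, and the dashed line marks the median of all genes in WT-shSCR, -0.04. Thbs1 is the highest member with enough counts in WT-shSCR at 1.29, Angptl2 lies on the median, Angptl7 is drawn for WT-shSCR only, and the 3 groups lie close together for Vegfa.

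The profile over the 12 libraries that was most like that of Vegfa, by Pearson r of log2 CPM after removal of each assay's mean, was that of Setd1a (r = 0.91), a histone H3K4 methyltransferase. Rab11b (r = 0.86), a GTPase of recycling endosomes, and Zdhhc8 (r = 0.86), a palmitoyltransferase, came next. They are the top of 5506 genes with at least 30 counts in each library, the points share libraries and scaling, and Vegfa itself varied with an SD of only 0.19, so this is a description.

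The receptors of these ligands were also counted in the fibroblasts, and changes of the pathway genes are given as log2 fold changes by edgeR. Of 9 receptors and co-receptors, 7 were tested in RNA of the knockout, where 2 fell and 0 rose, beside 7.93% of all genes called. Nrp1, the VEGF co-receptor neuropilin 1, fell, with log2 fold changes of -0.66 (SE 0.15) in RNA and -0.77 (SE 0.08) in footprints. Cd36, which binds thrombospondin 1, fell from 42 and 27 RNA counts in WT-shSCR to 4 and 8 in the knockout, with log2 fold changes of -2.77 (SE 0.53) in RNA and -3.80 (SE 0.38) in footprints. In both knockout comparisons Cd36 passed the filter on low counts only through WT-shSCR, where it was high. Those values are therefore a description and no support for a difference. Cd47, the other thrombospondin receptor, rose in knockout footprints by 0.73 (SE 0.19). Of the 7 tested in knockout footprints 2 fell and 1 rose, beside 18.5% of all genes called. In WT-shARF RNA Cd36 (log2 fold change -1.80, SE 0.46) and Flt4, the receptor of VEGF-C (-1.05, SE 0.22), fell, while Cd47 rose by 0.96 (SE 0.27). These were the calls among 7 tested in WT-shARF RNA, beside 7.28% of all genes called. In WT-shARF footprints Cd36 alone of 7 tested was called, at -1.57 (SE 0.32), beside 11.1% of all genes.

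Macrophages also express Cd36, and macrophage markers moved with it. The 10 markers summed to between 499 and 517 CPM in WT-shSCR RNA, between 176 and 265 CPM in WT-shARF, and between 54.6 and 77.7 CPM in Arf-/--shSCR. In the knockout 7 of 9 tested fell in RNA and 9 of 10 in footprints, and in WT-shARF 3 of 9 and 5 of 10 did. Some of the markers that fell in the knockout passed the filter on low counts only through WT-shSCR, where they were high. Of all genes tested, 7.93% and 18.5% were called in RNA and footprints of the knockout, and 7.28% and 11.1% in WT-shARF. Aif1, a defining marker, had 5 and 8 RNA counts in WT-shSCR and 0 in both knockout libraries, and 10 and 9 footprint counts in WT-shSCR beside 11 and 3 in the knockout. Mesothelial and epithelial markers summed to between 95.4 and 99.2 CPM in WT-shSCR RNA, 64.2 and 78.5 CPM in WT-shARF and 168 and 188 CPM in the knockout. In knockout RNA 4 of 7 tested rose, and all 4 passed the filter on low counts only through the knockout, where they were high. Their calls are therefore a description and no support for a difference. Smooth muscle and pericyte markers summed to between 15664 and 15697 CPM, 10030.4 and 11381 CPM, and 14848 and 14912 CPM in the same order, and adipocyte markers did not exceed 14.6 CPM in any library. The part of any of these cells in the members' values was not tested.

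Of 3 other ligands tested in knockout footprints, 2 were called, beside 18.5% of all genes. Figf (VEGF-D) rose in knockout footprints by 2.61 (SE 0.83) on 2 and 3 counts against 42 and 16, and Angpt4 fell by 2.94 (SE 0.69). Figf passed the filter on low counts only through Arf-/--shSCR and Angpt4 only through WT-shSCR, where each was high. Both calls are therefore a description and no support for a difference. Angpt2, the antagonist of Angpt1, was not called. The 3 other thrombospondins, Thbs3, Thbs4 and Comp, were all tested in RNA and TE against WT-shSCR, but only 1 of them in footprints. By edgeR 0 were called. Of the 4 other angiopoietin-like genes at most 1 had enough reads to be tested in any comparison with WT-shSCR.

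Genes of the pathways known to induce Vegfa and Angptl4 gave few calls, beside 7.93% of all genes called in knockout RNA and 18.5% in knockout footprints. Of 8 regulators of oxygen sensing, including Hif1a, 6 were tested in RNA and 8 in footprints against WT-shSCR. In RNA, footprints or TE 0 were called. Of 10 hypoxia-induced genes, 8 were tested in knockout RNA, where P4ha2, a collagen prolyl hydroxylase, fell by 0.74 (SE 0.19). In knockout footprints P4ha2 fell by 0.49 (SE 0.12) and Adm, adrenomedullin, rose by 0.64 (SE 0.21), and in WT-shARF 0 were called. Of 9 PPAR targets, a list that includes Angptl4 itself, Plin2, the lipid droplet coat protein, fell in the knockout, with log2 fold changes of -1.005 (SE 0.15) in RNA and -1.30 (SE 0.12) in footprints. Footprints of Cpt1a, of fatty acid import into mitochondria, fell by 0.83 (SE 0.18). In WT-shARF footprints Pdk4, a kinase that inhibits pyruvate dehydrogenase, fell by 1.14 (SE 0.32), and no PPAR target was called in RNA.

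Other secreted factors that act on vessels moved in both directions. Of 15, 13 were tested in knockout RNA, where 2 rose and 1 fell, beside 7.93% of all genes called. In knockout footprints 14 were tested, where 3 rose and 4 fell, beside 18.5% of all genes called. Nov (CCN3) rose from 5.30 and 6.49 CPM in WT-shSCR RNA to 36.2 and 34.1 CPM, a log2 fold change of 2.59 (SE 0.36). Ptn, pleiotrophin, rose by 1.13 (SE 0.26) in RNA, and Mdk, midkine, its relative, by 1.60 (SE 0.40) in footprints. Sparc, a matrix protein that binds VEGF, fell by 0.70 (SE 0.14) in RNA. In WT-shARF RNA 2 of 13 rose, beside 7.28% of all genes called. They were Adamts1, a protease that releases antiangiogenic fragments of thrombospondins, by 0.76 (SE 0.16) and Cxcl12, a chemokine, by 0.70 (SE 0.21). In WT-shARF footprints 3 of 14 rose and 3 fell, beside 11.1% of all genes called. Among them were Ptn, which rose by 0.71 (SE 0.13), and Col18a1, the source of endostatin, which fell by 0.81 (SE 0.23). In TE 0 of the 14 tested were called in either comparison with WT-shSCR.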

How the data were processed

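RNAseq and ribosome profiling libraries (the latter with RNase T1) were analysed as deposited. The authors clipped adapters, split reads by barcode, removed the molecular identifiers with UMI-tools, removed rRNA and other noncoding reads with Bowtie2, mapped what remained to mm10 by TopHat and tallied coding-sequence reads by HTSeq. Tool versions and removal of duplicates by identifier are not given in the sources used here, so counting error is a lower bound of the error. The files as deposited hold raw counts, 1 per gene. Alignments that were not unique, between 46.3% and 81.4% of the alignments of a library, and those on no feature stayed out of library sizes and tests.

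Members, gene lists and tests were chosen with earlier results of these data known. CPM used TMM factors over the 6 libraries of an assay. Changes were tested with edgeR 4.0.16 in R 4.3.3 (filterByExpr, quasi-likelihood F test), on 4 libraries for RNA or footprints and, for TE, as the assay-by-condition interaction on 8. SE is the absolute log2 fold change divided by the square root of F. Benjamini-Hochberg adjustment covered all genes tested, with a threshold of 0.05. With 2 against 2 libraries an exact permutation test cannot go below 0.33. Alternatives were DESeq2 1.42.0, other scalings and filters, all groups in one fit, a replicate block and leaving out each replicate. The fits were tested on simulated counts.

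Named genes are all members, the called genes of each list against WT-shSCR (at most the 4 largest changes per list, of which 1 is not reported here), the 3 profiles most like Vegfa, and Cdkn2a. Other genes are named only as list members. Coding lengths and coordinates came from GENCODE M21 (GRCm38, the assembly of mm10), and 19781 of 20661 symbols matched. Tables and plots were made with Python 3.11.15, numpy 2.4.6, pandas 2.3.3 and matplotlib 3.10.9.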

Additional observations from a re-analysis of the deposited data

How the results depend on the processing

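Against 2 member calls in knockout RNA, 1 was made with DESeq2, 1 with at least 10 counts in every library, 1 with all groups in one fit and 0 to 2 without single replicates, with 0 without Arf-/--shSCR replicate 2 or WT-shSCR replicate 2 and 1 without WT-shSCR replicate 1. Against 3 in knockout footprints, 2 were made with DESeq2 and 2 with no filter, where Thbs2 was lost, and 0 to 2 without single replicates, and the fits without either WT-shSCR library called 0 genes of all. Against 1 in WT-shARF RNA, 0 were made with DESeq2, 0 with at least 10 counts (which removed Angptl7) and 0 to 1 without single replicates, with 0 without WT-shARF replicate 2. Against 1 in WT-shARF footprints, 0 were made with at least 10 counts, 2 with the replicate block and 1 to 2 without single replicates, the added gene being Thbs1. Between Arf-/--shSCR and WT-shARF, the 2 RNA calls became 1 with the replicate block, where Angptl2 was lost, and 0 to 2 without single replicates, and the 4 footprint calls became 0 to 4. The RNA calls were 1 without Arf-/--shSCR replicate 2 or WT-shARF replicate 1 and 0 without WT-shARF replicate 2, and the footprint calls 2 without Arf-/--shSCR replicate 1 and 0 without either WT-shARF library. Member calls of TE were 0 under every alternative. Calls over all genes moved from 845 to 467 in knockout RNA, from 1988 to 1305 in knockout footprints and from 765 to 318 in WT-shARF RNA with DESeq2, and from 22 to 75, from 4 to 50 and from 5 to 18 in the 3 TE comparisons. Without a filter the TE calls were 123, 40 and 77, and with at least 10 counts 34, 13 and 5. With all groups in one fit they were 52, 0 and 5, and WT-shARF RNA had 497. No filter gave 617 RNA calls in place of 273 between Arf-/--shSCR and WT-shARF, and upper quartile factors gave 2 TE calls in WT-shARF. Without single replicates, calls over all genes ran from 222 to 790 in knockout RNA, 0 to 1193 in knockout footprints, 274 to 883 in WT-shARF RNA, 614 to 1067 (1147 with every library) in WT-shARF footprints, 6 to 798 in RNA and 0 to 781 (900 with every library) in footprints between Arf-/--shSCR and WT-shARF, and 6 to 51, 7 to 24 and 1 to 125 in TE. The cause of these shifts was not tested. Same-numbered replicates deviated with correlations between -0.12 and 0.05, and whether replicates of different groups share a factor was not tested. The replicate block changed no other member call. It moved the TE calls from 4 to 39 in WT-shARF and from 5 to 8 between Arf-/--shSCR and WT-shARF. A crossed pairing, added after the data were seen, gave 1438 calls in knockout RNA, 464 in WT-shARF RNA and 832 between Arf-/--shSCR and WT-shARF RNA, and 49, 2 and 48 in TE. Of 833 values of single members under the alternatives, 780 moved by less than 1 SE and 0 called values reversed. With 2 replicates per group, no sample could be checked as an outlier, and Vegfb, Pgf and Angpt1 are limited by depth.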
